A study of Mus musculus with 5 samples.

Results

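The genes described here are 8 regulators of the somite and its parts, Pax3, Meox1, Meox2, Tcf15, Eya1, Myf5, Pax1 and Foxc2, read in single cells from the circulation of mouse embryos. They were chosen by name, and all 8 were found among the 24411 genes of the table. Levels are in CPM, a gene's unique molecules (UMIs) in a cell scaled to a total of 1000000 UMIs for that cell, spike-ins left out. Of the 480 columns of the table, 294 were kept, each a cell with at least 1000 genes and 30000 UMIs.

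The study profiled circulating cells outside the blood lineages in mid-gestation. All embryos were wild type and of the C57BL/6 strain, at embryonic day 9.5 (E9.5, 2 batches) or embryonic day 10 (E10, 3 batches). Blood was drawn from the heart, cells without the blood surface proteins CD45, CD43, CD41 and TER119 were sorted, and single cells were picked with a mouth pipette for a modified STRT-seq library, which tags each molecule. The kept cells numbered 26 and 46 in E9.5 replicates 1 and 2, and 87, 72 and 63 in E10 replicates 1 to 3, with batch totals of 7545865 to 44415774 UMIs and a median of 308924 UMIs per cell. Nothing in the labels says that batches came from separate litters, so the p-values below cover at most the spread between these samples. Each test takes part of its estimate of that spread from other genes. Each batch holds 1 stage, so batch and stage cannot be told apart.

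Somites are paired blocks of paraxial mesoderm beside the neural tube. Their dorsal part, the dermomyotome, gives rise to skeletal muscle and to dermis of the back, and their ventral part, the sclerotome, gives rise to vertebrae and ribs. At limb levels, cells of the dermomyotome edge leave the epithelium and migrate into the limb bud, for which they need Pax3 and the receptor Met. Pax3 is not confined to somites, since dorsal neural tube and neural crest express it too.

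In the annotation of the mouse GRCm38 assembly, Pax3 lies at chr1:78101267-78197134 and Eya1 at chr1:14168954-14310235, both on the minus strand. Meox1 lies at chr11:101877510-101894374 (minus) and Meox2 at chr12:37108540-37179534 (plus). Tcf15 lies at chr2:152143561-152149097 (plus) and Pax1 at chr2:147361925-147393295 (plus). Myf5 lies at chr10:107482908-107486134 (minus) and Foxc2 at chr8:121116171-121118895 (plus). No strand setting of the counting is recorded, so reads of Pax1 and of AI646519, an antisense gene across its locus that has its own row in the table, cannot be told apart.

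Low values differed between batches and set how the counts are read. Clusters with erythroid markers held 46 of the 294 kept cells and a progenitor-like blood cluster 15, although the sort was against blood surface proteins, and 233 cells lay outside them. In E10 replicate 2, all 23 erythroid-like cells had Pax3 UMIs, with a median of 23.3 CPM and a highest value of 58.7 CPM. Meox2 was found in all 23 as well, at a median of 15.9 and at most 31.7 CPM. Foxc2 was also found in all 23, at up to 25.0 CPM. Tcf15 and Meox1 were found in 21 each, at up to 33.6 and 20.2 CPM, and Eya1 in 19, at up to 20.1 CPM. Myf5 and Pax1 had a UMI in only 2 and 1 of them. The batch sums of E10 replicate 2 given below include these cells, and their part in the sums was not tested. Outside E10 replicate 2, only 5 of the 23 other erythroid-like cells had a Pax3 UMI. Single UMIs are therefore not read as expression, and a cell is counted for a gene at 50 CPM or more, a level that 1 of the 46 erythroid-like cells reached for Pax3 and none for the other 7 genes. Among 72 cells of E10 replicate 2 the share with a Pax3 UMI was 98.6%, and 54.2% after every cell was thinned to 30000 UMIs, which is why shares of cells with a UMI are not compared between batches below.

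By the count at 50 CPM, Eya1 was the most widespread gene, in 74 cells, followed by Meox1 in 55, Foxc2 in 38, Pax3 in 30, Meox2 in 22 and Tcf15 in 20. Pax1 reached that level in 3 cells and Myf5 in 2. No member reached it in 148 of the 294 cells, 1 did in 83, 2 did in 41, 3 did in 11, 4 did in 9 and 5 did in 2. The plot of CPM per cell shows these counts as the points above the dashed line.

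**Figure D1:**
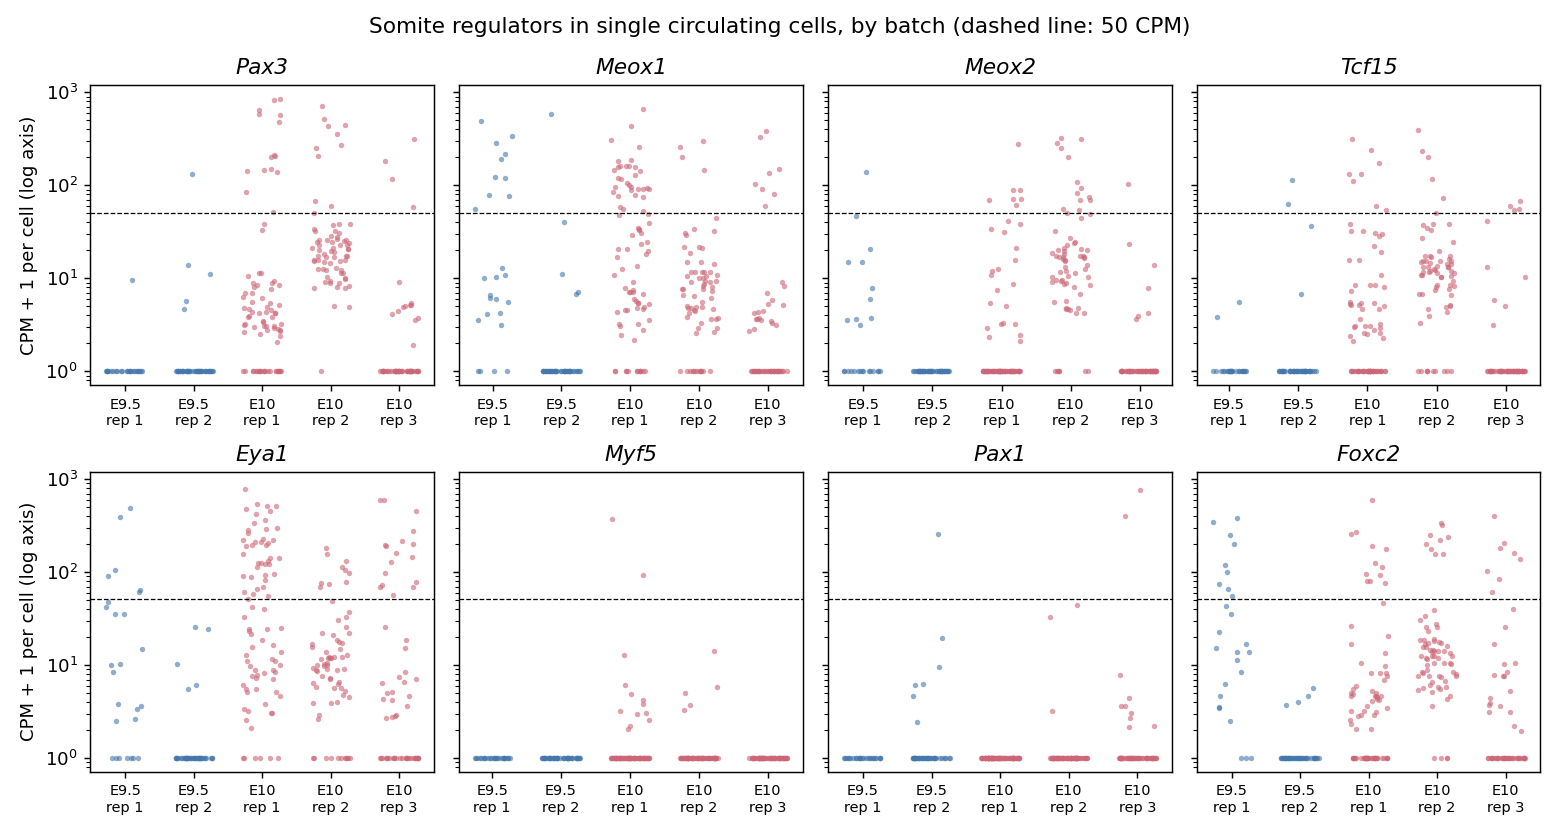
CPM per cell with 1 added (log axis) of the 8 genes in the 5 batches. Points are single cells, blue for E9.5 and red for E10, and the dashed line is 50 CPM. Pax3 has 30 cells at or above the line, 29 of them in the E10 batches, and the low band of E10 replicate 2 lies where the erythroid-like cells of that batch lie.

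Pax3, the paired-box factor of the presomitic mesoderm, dermomyotome, dorsal neural tube and neural crest, was the member with the highest single-cell level. The batch sums held 0.530 and 2.98 CPM at E9.5 and 71.1, 66.4 and 12.04 CPM at E10. Cells at 50 CPM or more numbered 0 and 1 at E9.5 and 15, 10 and 4 at E10. All E10 batches were above both E9.5 batches, and 5 cells carried 62.7% of the summed cell levels in E10 replicate 1, so the sums rest on few cells. The highest cell held 858 CPM, from 342 UMIs.

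Meox1 and Meox2, homeobox genes of early somites that act together in dermomyotome and sclerotome, had different distributions over batches. The batch sums of Meox1 were 81.8 and 5.61 CPM at E9.5 and 62.2, 19.6 and 16.3 CPM at E10. Cells at 50 CPM or more numbered 10 and 1 at E9.5 and 32, 4 and 8 at E10. High Meox1 was thus found at both stages, and the 2 E9.5 batches lay at the top and the bottom of the order. For Meox2 the batch sums were 8.88 and 0 CPM at E9.5 and 8.83, 38.8 and 2.43 CPM at E10, with 1, 0, 7, 13 and 1 cells at 50 CPM or more in the same order. E10 replicate 2 stood highest, and E9.5 replicate 1 and E10 replicate 1 were nearly equal. No Meox2 UMI was found in 46 cells of E9.5 replicate 2, which allows a share of cells with a UMI of up to 6.52%, a limit that covers counting error only.

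Tcf15 (paraxis), a basic helix-loop-helix factor needed for the epithelial form of somites, had batch sums of 0.265 and 3.22 CPM at E9.5 and 24.1, 20.2 and 5.10 CPM at E10. It reached 50 CPM in 0 and 2 cells at E9.5 and in 8, 6 and 4 cells at E10. The E10 batches were all above the E9.5 batches. The highest Tcf15 value, 393 CPM from 18 UMIs, was in a cell of the progenitor-like blood cluster in E10 replicate 2, which had no Meox1, Meox2 or Eya1 UMI.

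Eya1, a phosphatase and transcriptional coactivator in muscle progenitors, placodes and other organs, had batch sums of 28.5 and 1.91 CPM at E9.5 and 115.9, 23.4 and 50.9 CPM at E10. It reached 50 CPM in 6 and 0 cells at E9.5 and in 41, 10 and 17 cells at E10. E10 replicate 2 lay below E9.5 replicate 1, so the stages overlapped. Of its 74 cells, 31 had no other member at 50 CPM.

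Myf5, a myogenic determination factor, was at 50 CPM or more in 2 cells, both of E10 replicate 1. The stronger one held 373 CPM of Myf5 (49 UMIs) with Meox1 at 671, Foxc2 at 175 and Tbx1, a head mesoderm and pharyngeal factor, at 861 CPM, and no Pax3 UMI. The other held 91.9 CPM (95 UMIs) with Pax3 at 144, Meox1 at 260, Eya1 at 208, Tbx1 at 84.1 and the myogenic factor Myod1 at 42.6 CPM. Both Myf5 cells thus also carried Meox1 and Tbx1, and 1 of the 2 carried Pax3.

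Pax1, a paired-box gene of the sclerotome and pharyngeal pouches, was found in 3 cells at 50 CPM or more. A cell of E10 replicate 3 held 760 CPM of Pax1 (235 UMIs) with its close relative Pax9 at 285, Foxc1 at 159, Meox1 at 90.6, Foxc2 at 84.1 and Tbx1 at 123 CPM. A second cell of that batch held 400 CPM of Pax1 (43 UMIs), the same level of Pax9 and 493 CPM of Foxc1, with no Meox1 UMI. The E9.5 cell, in replicate 2, held 259 CPM of Pax1 (17 UMIs) and 579 CPM of Meox1, with no UMI of Pax9, Foxc1 or Foxc2. None of the 3 cells had a Pax3 UMI.

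Foxc2, a forkhead factor of paraxial mesoderm, sclerotome and developing vessels, had batch sums of 60.3 and 0.477 CPM at E9.5 and 24.4, 35.2 and 16.4 CPM at E10. Cells at 50 CPM or more numbered 9 and 0 at E9.5 and 12, 9 and 8 at E10. As for Meox1, the 2 E9.5 batches were the highest and the lowest of all 5.

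The genes were next read over clusters of cells built without them. Cluster names rest on marker genes, several clusters were left unnamed, and a cluster mostly of 1 library may be that library and not a type of cell. Cluster 10, with 12 of its 16 cells from E10 replicate 1, had the highest mean of Eya1 (356 CPM), Pax3 (271 CPM) and Tcf15 (68.4 CPM), with Meox1 at 78.1 CPM. Eya1 was at 50 CPM or more in 16 of its 16 cells, Pax3 and Meox1 in 8 each and Tcf15 in 7. Its leading genes included Pcp4 and Zcchc12 beside Pax3 and Eya1, although these last had not been used to form it. Cluster 0, with 36 of 37 cells from E10 replicate 2 and led by the basement membrane genes Col4a1 and Lama1 and by Hoxc10, had Pax3 at 98.2, Foxc2 at 65.5 and Meox2 at 58.8 CPM.

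Foxc2 and Pax1 were highest in cluster 4, whose leading genes were the contractile genes Acta2 and Tagln and the endothelial genes Cldn5 and Plvap. It also held 5 mesenchymal markers, among them Pdgfra and Col1a1, and was left unnamed because its 10 leading genes held more endothelial than mesenchymal markers. Its 28 cells, 16 of them from E9.5 replicate 1, held Foxc2 at 132, Meox1 at 87.3 and Pax1 at 41.4 CPM, with Pax3 at 0.823 CPM. Foxc2 was at 50 CPM or more in 17 of the 28. Cluster 3, with 28 of 31 cells from E10 replicate 1 and 8 mesenchymal markers, was unnamed for the same reason and held Eya1 at 90.6 and Meox1 at 83.8 CPM, with Meox1 at 50 CPM or more in 16 cells. In cluster 5, a neural or neural crest-like cluster led by Dbh, Nefm and Th, Eya1 stood at 138 CPM and passed 50 CPM in 13 of 24 cells, while Meox1, Meox2 and Tcf15 stood at 1.02, 0.818 and 0.545 CPM. All 8 means were at or below 1.83 CPM in cluster 6, the erythroid-like cluster with cells outside E10 replicate 2.

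**Figure D2:**
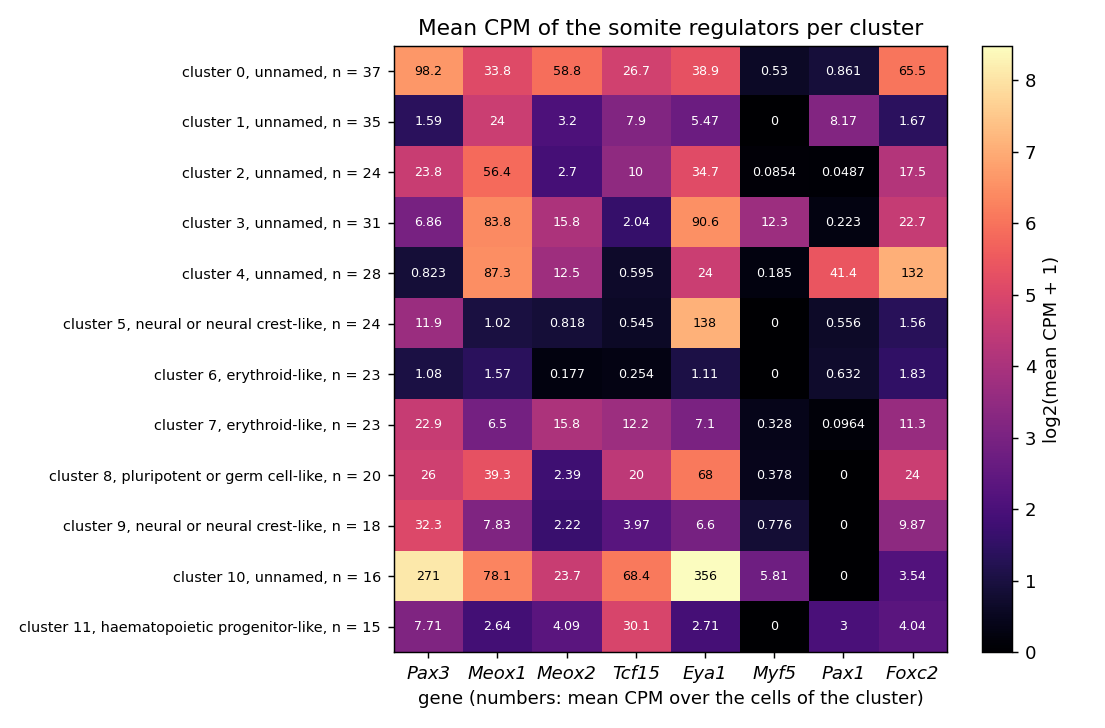
Mean CPM of the 8 genes (columns) over the cells of the 12 clusters (rows), with colour on a log2 scale of mean CPM plus 1 and the mean printed in each field. Pax3, Tcf15 and Eya1 are brightest in cluster 10, Foxc2 and Pax1 in cluster 4, and Meox2 in cluster 0.

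Within single cells, Eya1 and Tcf15 were the members most often found beside Pax3. Among the 233 cells outside blood-like clusters, Pax3 was at 50 CPM or more in 29 and Tcf15 in 19, and 14 cells had both, which is 48.3% of the Pax3 cells and 73.7% of the Tcf15 cells. Eya1, which is more widespread, accompanied Pax3 in 18 cells, which is 62.1% of the Pax3 cells and 24.3% of the Eya1 cells. Meox1 did so in 10 and Meox2 in 7. Foxc2 accompanied it in 1 of 29 cells, and Pax1 in none. Foxc2 was found instead beside Meox1, in 18 cells, which is 47.4% of the Foxc2 cells and 32.7% of the Meox1 cells, from 4 of the 5 batches. Cells with Meox1 and Eya1 numbered 25, of which 20 were in E10 replicate 1.

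The cells with the most members had Pax3. A cell of E10 replicate 1 held Pax3 at 822, Eya1 at 422, Meox1 at 106, Meox2 at 69.0 and Tcf15 at 53.2 CPM, with Met at 235 CPM. A cell of E10 replicate 3 held Pax3 at 181, Eya1 at 161, Meox1 at 136, Foxc2 at 59.6 and Tcf15 at 58.5 CPM. These were the only cells with 5 members at 50 CPM or more.

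The 29 cells fell along the line between clusters of neural or neural crest-like cells and the rest. In the neural or neural crest-like clusters there were 7, with Pax3 between 50.7 and 212 CPM. Sox10, a neural crest and glial factor, was at 50 CPM or more in all 7, Meox1, Meox2, Tcf15 and Met in none, and Eya1 in 2. Outside those clusters there were 22, with Pax3 between 137 and 858 CPM. Of these, 19 had Meox1, Meox2 or Tcf15 at 50 CPM or more, 17 had Met, 16 had Eya1, 2 had Sox10 and 1 had Foxc2. Sox10 and other neural genes took part in the clustering, so Sox10 in these cells is a description, and no test was made of the split.

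**Figure D3:**
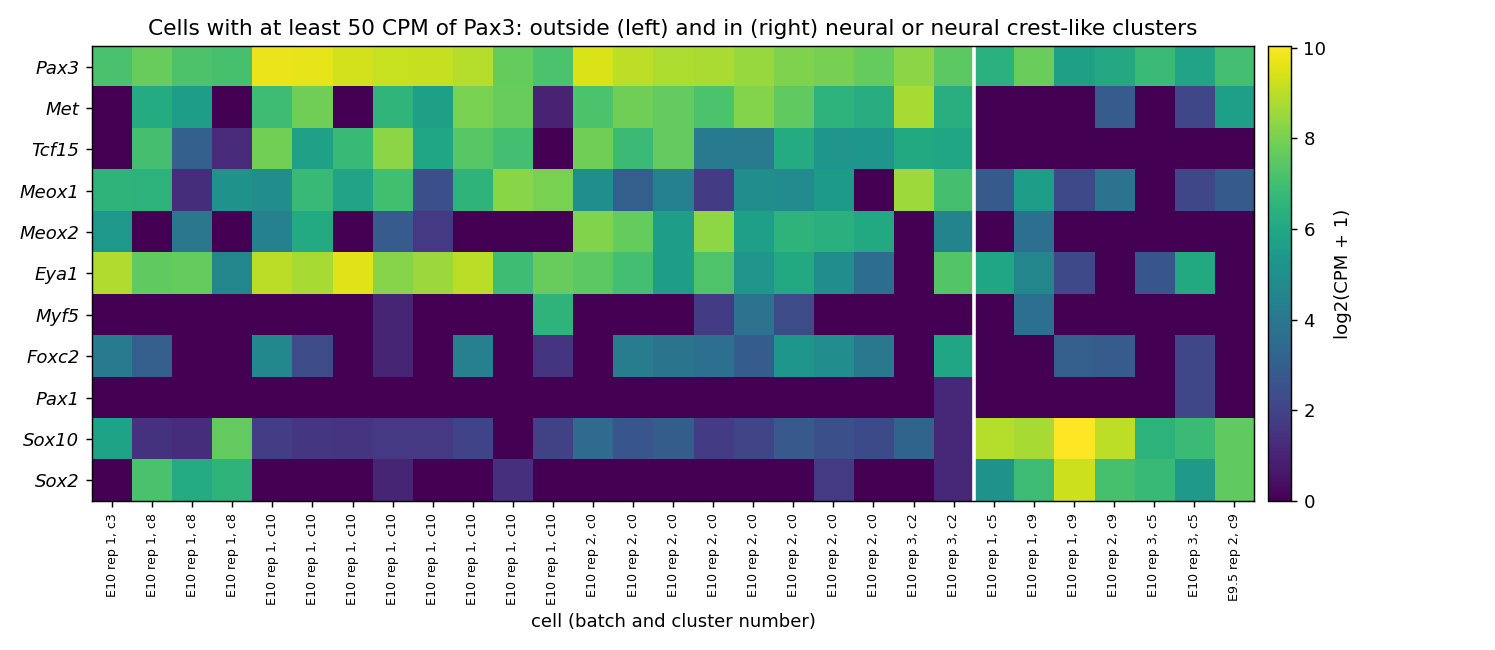
The 29 cells with at least 50 CPM of Pax3 outside blood-like clusters (columns, with batch and cluster number), and log2(CPM + 1) of 11 genes (rows). The 22 cells left of the white line lie outside neural or neural crest-like clusters, and the 7 on its right lie inside them. Tcf15 is at 0 in every cell on the right, where Sox10 is bright in each.

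The split was read again with other limits for every gene. At 30 CPM, 23 of 27 cells outside the neural or neural crest-like clusters had Meox1, Meox2 or Tcf15 and 19 had Met, against 1 and 1 of 9 cells inside them. At 100 CPM the counts were 14 and 11 of 22 outside and 0 and 0 of 3 inside. Of the 233 cells, 12 lay near the limit, between 25 and 100 CPM. The lowest value inside it was 50.7 CPM and the highest outside it 49.3 CPM.

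By batch, cells with Pax3 together with Meox1, Meox2 or Tcf15 numbered 0 of 26 and 0 of 46 at E9.5, which allows shares of up to 11.54% and 6.52%. At E10 they numbered 10 of 87 (11.49%, 95% exact Clopper-Pearson interval 5.65 to 20.1%), 7 of 72 (9.72%, 4.00 to 19.0%) and 2 of 63 (3.17%, 0.387 to 11.0%). These limits and intervals cover counting error within a batch only, the last E10 batch lies within the limits of the E9.5 batches, and the stages were not tested for this share. The only E9.5 cell with Pax3 at 50 CPM or more, at 130 CPM in replicate 2, was a neural or neural crest-like cell with Sox10 at 192 CPM.

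The partner of Pax3 differed between E10 batches, a difference that was not tested. In E10 replicate 1, 8 of the 15 Pax3 cells had Meox1 at 50 CPM or more and 1 had Meox2. In E10 replicate 2, 0 of 9 had Meox1 and 6 had Meox2. In E10 replicate 3, 2 of 4 had Meox1 and none Meox2. Another gene, chosen after its values were seen, moved with the batch in the 22 cells outside neural or neural crest-like clusters. Hoxc10, a gene of lumbar and hindlimb levels, was at 50 CPM or more in 0 of 12 cells of E10 replicate 1, in 8 of 8 of E10 replicate 2 and in 1 of 2 of E10 replicate 3. Hoxc10 and Hoxa10 were among the leading genes of cluster 0 as a whole, which comes almost entirely from E10 replicate 2, so the batch and the kind of cell cannot be told apart.

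To find the genes that accompany Pax3, counts were summed per batch over cells at 50 CPM or more (Pax3-positive) and over cells with no Pax3 UMI (Pax3-negative), outside blood-like clusters, and compared within batches. Only E10 replicates 1 and 3 had 3 cells on both sides, with 15 and 4 positive cells and 23 and 37 negative cells. E10 replicate 2 had 9 positive cells and 1 negative cell. The test thus rests on 4 sums from 2 batches with a batch block, and its small p-values lean on spread estimated over many genes. Pax3 itself chose the cells, and its value is not a result. The 90 cells between 0 and 50 CPM were left out.

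Met, the receptor of hepatocyte growth factor, had the smallest adjusted p among the tested genes of a dermomyotome and muscle list. Its sums held 80.8 CPM in positive against 0.653 CPM in negative cells of E10 replicate 1, and 82.7 against 5.56 CPM in E10 replicate 3. Positive cells were higher in both batches, with a log2 fold change of 5.26 (standard error, SE, 0.80, edgeR adjusted p = 6.61e-08). By cell, over all batches and not only those tested, Met was at 50 CPM or more in 17 of the 29 Pax3-positive cells (58.6%). It was so in 6 of the 114 Pax3-negative cells (5.26%) and in 3 of the 90 between. Median depths over all batches were 440635 UMIs in positive and 203433 UMIs in negative cells. In the tested batches they were 518755 against 488079 UMIs in E10 replicate 1 and 237616 against 204141 UMIs in E10 replicate 3.

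**Figure D4:**
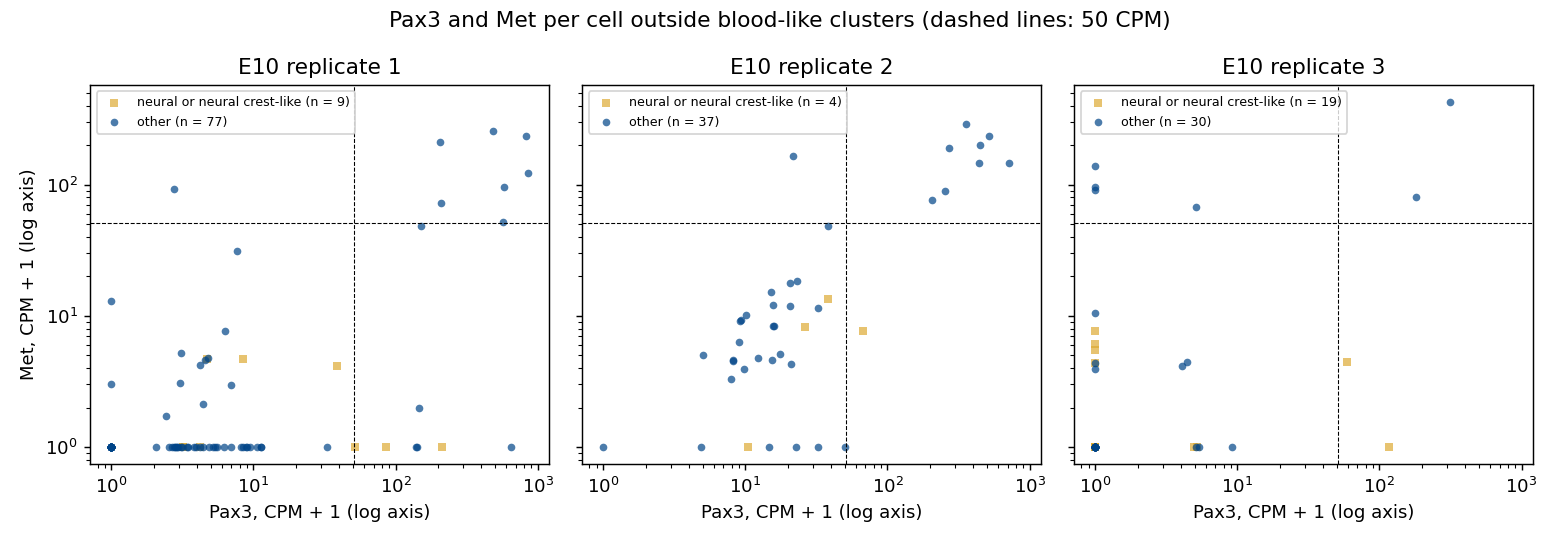
CPM plus 1 of Pax3 (x axis) and Met (y axis), both on log axes, in the cells of the 3 E10 batches outside blood-like clusters, with dashed lines at 50 CPM. Squares are neural or neural crest-like cells and circles are the others. The upper right field holds 7, 8 and 2 cells in replicates 1, 2 and 3, none of them a square.

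Tcf15 rose with Pax3 in the same comparison. It held 99.3 against 7.28 CPM in E10 replicate 1 and 40.3 against 2.72 CPM in E10 replicate 3. The log2 fold change was 3.82 (SE 0.78, edgeR adjusted p = 0.000348). Eya1 held 281 against 45.0 CPM and 110 against 85.4 CPM in the same batches, and Meox1 held 105 against 61.0 CPM and 113 against 15.7 CPM. Their log2 fold changes were 1.52 (SE 0.39, edgeR adjusted p = 0.0168) and 1.79 (SE 0.50, edgeR adjusted p = 0.0410), and both were no longer called by DESeq2, with adjusted p of 0.206 and 0.207. Most of the Eya1 difference was in E10 replicate 1 and most of the Meox1 difference in E10 replicate 3. Over all genes 12362 were tested and 95 called, 30 higher and 65 lower in positive cells, which is 0.768% called in either direction. Pax3, which chose the cells, is among the 30. Of the 7 members other than Pax3, all of which passed the filter on low counts, 3 were called, each higher, beside 0.243% of all genes called higher and 0.526% called lower. Meox2, at 3.31 (adjusted p = 1), Myf5, Pax1 and Foxc2, at -1.02 (adjusted p = 1), were not.

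Since E10 replicate 2 could not enter, positive cells were also set against all cells under 50 CPM in 3 batches, an alternative chosen after the data were seen. Met held 77.2 against 2.37, 187 against 12.3 and 79.3 against 5.68 CPM in replicates 1, 2 and 3, and the log2 fold change was 4.25 (SE 0.40, edgeR adjusted p = 0.000414). Tcf15 held 94.9 against 5.88, 92.7 against 9.71 and 38.7 against 3.81 CPM, and its log2 fold change was 3.54 (SE 0.44, edgeR adjusted p = 0.00344). Both were higher in positive cells of 3 of 3 batches. Eya1 was at 1.47 (adjusted p = 0.122), Meox1 at 1.06 (adjusted p = 0.842), Meox2 at 1.49 (adjusted p = 0.589) and Foxc2 at -1.40 (adjusted p = 0.736). Beside Pax3, 1 of 6 tested members was called, while 26 of 12179 genes were, Pax3 among them. These are 0.213% of those tested, with 0.0657% higher and 0.148% lower. Leaving out replicate 1, 2 or 3 gave 91, 100 or 181 calls, each more than the 26 of all 3 batches. A call that holds with a batch left out is thus no stricter check than the 3-batch call. Met and Tcf15 were called without each of the 3 batches in turn, and the calls of the other members depended on the batch left out. Eya1 was called higher without replicate 2 (log2 fold change 1.22, edgeR adjusted p = 0.0409) and without replicate 3 (1.92, edgeR adjusted p = 4.30e-09), but not without replicate 1. Meox1 was called higher without replicate 2 (1.98, edgeR adjusted p = 0.00571) and Meox2 without replicate 1 (2.30, edgeR adjusted p = 0.00856). Foxc2 was called lower in positive cells without replicate 3 (-2.30, edgeR adjusted p = 0.000589).

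**Figure D5:**
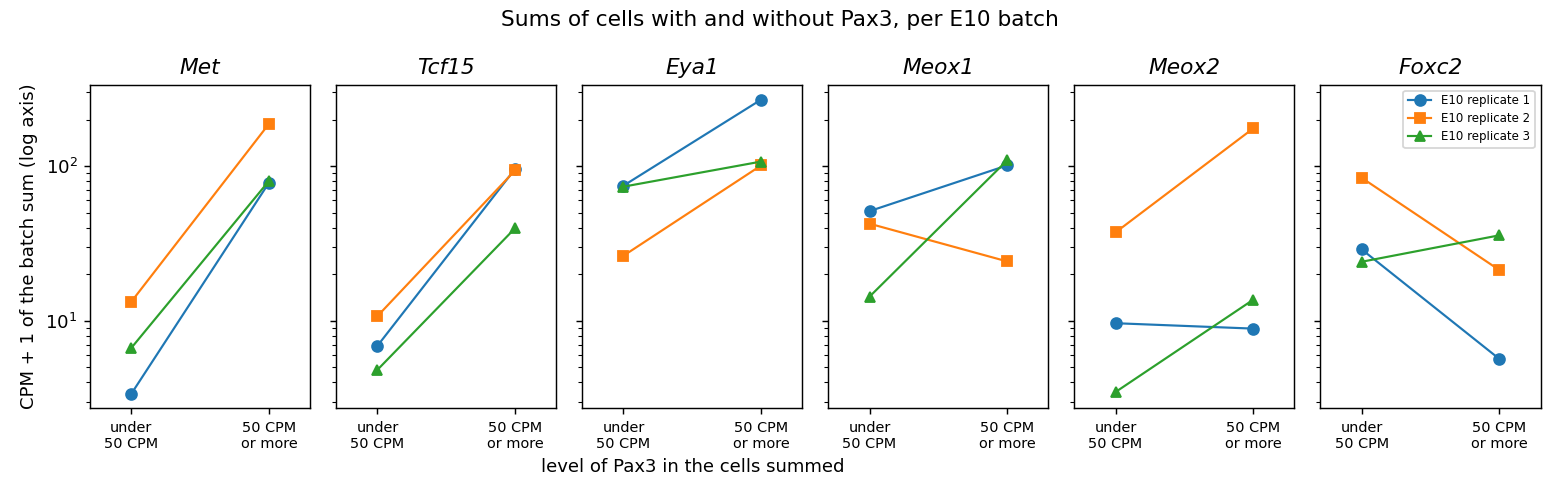
CPM plus 1 (log axis) of the batch sums of cells under 50 CPM and of cells at 50 CPM or more of Pax3, for Met and 5 members in the 3 E10 batches, each a colour and a marker shape. Lines rise in all 3 batches for Met, Tcf15 and Eya1, and run both ways for Meox1, Meox2 and Foxc2.

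Other genes of the dermomyotome and muscle list moved less uniformly. Of its 13 genes 8 were tested against Pax3-negative cells, and 2 rose, Met and Eya2, a relative of Eya1 (log2 fold change 3.68, SE 0.86, edgeR adjusted p = 0.00419). The median log2 fold change of the 8 was 1.99, beside -0.12 over all genes tested. Dach1, an abundant member of the list, held -0.38 (adjusted p = 1). Lbx1, a homeobox gene of migrating limb muscle precursors, reached 50 CPM in 2 of the 29 positive cells and in none of the negative cells. Its log2 fold change, 8.87, was larger than that of Met but was not called (edgeR adjusted p = 0.730). Sim1, at 5.75, was not called either (edgeR adjusted p = 0.421). It reached 50 CPM in 3 of 29 positive, 0 of 114 negative and 6 of 90 other cells. Pax7, the other paired-box gene of muscle progenitors, reached 50 CPM in 0 of 29 positive cells and had a highest value of 4.70 CPM there.

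Of 8 sclerotome genes 5 were tested, and Twist1, a basic helix-loop-helix gene of mesenchyme, fell by 1.31 on the log2 scale (SE 0.35, edgeR adjusted p = 0.0335). Sox9 held -1.47 (adjusted p = 0.624). Nkx3-2 had no UMI in any of the 29 positive, 114 negative or 90 other cells. The list's median was -0.90. Of the presomitic and segmentation genes 4 of 14 were tested, with a median of 2.17, and the Notch ligand Dll3 rose by 2.15 (SE 0.37, edgeR adjusted p = 3.05e-06), while Dll1 held 2.55 (adjusted p = 1). Dll3 was at 10.4 CPM or less in each of the 22 Pax3-positive cells outside neural or neural crest-like clusters, while the highest value in the neural or neural crest-like ones was 1289 CPM. Of 17 neural crest and dorsal neural tube genes 10 were tested, with a median of 0.25, and the abundant Tfap2b and Ets1 held 0.27 and 0.41 (adjusted p = 1 for each). Of 42 Hox genes 33 were tested, with a median of 0.14, and 1, Hoxd10, rose. None of these lists' genes other than Met was called in the 3-batch comparison.

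Among the genes with the largest changes against Pax3-negative cells, the higher ones were Opn1sw, a cone opsin (log2 fold change 5.96), Hoxd10 (5.70), Met, Btbd17 (4.84), the protocadherin Pcdh19 (4.65), Tcf15, Zcchc12 (3.72), Eya2, the G protein regulator Rgs2 (3.26) and Foxd2os (2.65). Opn1sw was at 50 CPM or more in 1 of 12 positive cells of E10 replicate 1 and 1 of 2 of E10 replicate 3 outside neural or neural crest-like clusters, and Btbd17 was at 0.967 CPM or less in all 22. Pcdh19 was at that level in 6 of 12, 4 of 8 and 1 of 2 of the same cells, and in the 3-batch comparison it rose by 3.54 (SE 0.47, edgeR adjusted p = 0.00675). There Asb4, an ankyrin repeat gene, rose by 1.68 (edgeR adjusted p = 0.00170) and Id2, an inhibitor of basic helix-loop-helix factors, by 0.71 (edgeR adjusted p = 0.0249), as did Plcg2 and Phlda1.

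The lower genes against Pax3-negative cells included Rgs4 (log2 fold change -5.22), the homeobox gene Phox2a (-4.29), the muscle actin Actc1 (-4.77), Fbln2 (-4.32) and 5 histone genes, Hist2h2ac, Hist1h1d, Hist1h2bm, Hist1h4n and Hist1h2bp, between -7.08 and -4.66. Hist2h2ac and Hist1h4n were among the leading genes of cluster 1, whose median depth was 133410 UMIs. Of its 35 kept cells, 23 were from E9.5 replicate 2, which is not in this comparison. E10 replicates 1 and 3 gave it 3 and 6 cells. The part of depth in these values was not tested. In the 3-batch comparison the genes lower in positive cells included the growth factor receptor Pdgfra (log2 fold change -3.64, edgeR adjusted p = 0.0123) and the collagen gene Col1a1 (-3.03, edgeR adjusted p = 0.0170). The hindlimb gene Pitx1 (-4.57, edgeR adjusted p = 0.0170) and the limb mesenchyme gene Prrx1 (-2.70, edgeR adjusted p = 0.0417) were lower as well. Arg1, Lpar1, Cck, Rtn1, Stmn3 and Rgs4 fell too. Prrx1 was at 50 CPM or more in 12 of the 29 positive cells (41.4%) and in 78 of the 114 negative cells (68.4%), so Pax3 cells were not free of it.

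Marker lists of other cell types were read in Pax3-positive and Pax3-negative cells, and the ranges of the neural or neural crest and erythroid lists overlapped. Counts were summed per batch, in the 4 batches with positive and the 5 with negative cells. The positive sum of E9.5 replicate 2 and the negative sum of E10 replicate 2 were 1 cell each. In the mesenchymal list none of the 11 genes was at 0. It added up to between 288 and 999 CPM in positive sums and between 1024 and 2752 CPM in negative sums, a narrow gap. The neural or neural crest list of 11 genes held 98.9 to 3812 CPM in positive and 0 to 4433 CPM in negative cells. Of the positive cells, 7 of 29 were neural or neural crest-like. The erythroid list, with the adult globin genes Hba-a1, Hba-a2, Hbb-bs and Hbb-bt at 0 on both sides, held 317 to 47342 CPM in positive and 321 to 85012 CPM in negative cells. The part of these cell types in the gene values was not tested.

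Across cells, Met had the pattern most like Pax3 among 11903 genes with a UMI in at least 10% of the 294 cells. Likeness is Spearman's rho within batches, averaged over the 5 batches by cell number, and cells of a batch share a collection and differ in depth, so it is a description. Met stood at 0.36, ahead of Ccdc130 (0.28), Wfikkn1 and Asb4 (0.27 each) and S100a16 (0.26). Tcf15 was at rank 19 for Pax3, with 0.21, and Eya1 at rank 64, with 0.18, while Foxc2 stood at 0.07. Closest to Tcf15 were Sowahb (0.35), Plch1 (0.31) and Rell1 (0.30), and to Eya1 Lrrn1 (0.37), Tubb2b (0.35) and Id2 (0.34). Among the genes most like Foxc2 were the forkhead genes Foxd1 (0.32) and Foxp1 (0.26). For Meox1 the closest genes were Ptprk, Plch1 and Vcan (0.29 each), and for Meox2 Hs6st2 (0.23), Cd24a (0.23) and Ttll3 (0.22). Myf5 and Pax1 had a UMI in 6.12% and 6.80% of cells and were not ranked.

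Between stages, sums over all cells of each batch were compared, E10 minus E9.5. Pax3 averaged 1.94 ± 2.02 CPM (SD, n = 2 batches) at E9.5 and 49.0 ± 33.1 CPM (SD, n = 3) at E10, scaled by TMM. Its log2 fold change was 4.66 (SE 1.10), higher in 3 of 3 E10 batches than in both E9.5 batches, with an edgeR adjusted p of 0.616 and a DESeq2 adjusted p of 0.000691. Tcf15 averaged 1.95 ± 2.39 and 16.1 ± 9.73 CPM, a log2 fold change of 3.05 (SE 1.18, edgeR adjusted p = 0.616). For these 2 of the 7 tested members all E10 batches lay above all E9.5 batches, and the same held for 16.2% of the 14103 genes tested.

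The other members overlapped between stages. Eya1 averaged 14.8 ± 17.9 CPM at E9.5 and 58.2 ± 37.7 CPM at E10 (log2 fold change 1.98, SE 1.01, edgeR adjusted p = 0.634). Meox2 was at 2.05 (adjusted p = 0.746), Pax1 at 1.44 (adjusted p = 0.905), Meox1 at -0.48 (adjusted p = 0.910) and Foxc2 at -0.21 (adjusted p = 0.974). Without E9.5 replicate 1, the batch in which both were highest, Meox1 was at 2.25 and Foxc2 at 5.53. Myf5, with 165 UMIs in all, did not pass the filter.

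None of the members was called between stages by edgeR, where 0 of 14103 genes (0%) were called and 1119 had an unadjusted p under 0.05. DESeq2 called 96 of 13489 genes tested, and 1 of 7 tested members, Pax3. None of the genes tested in the 5 lists was called either, namely 7 of the dermomyotome and muscle list (median log2 fold change 1.99), 7 of the sclerotome list (1.81), 5 of the presomitic list (-0.26), 12 of the neural crest list (0.26) and 36 Hox genes (0.42), beside a median of 0.09 over all genes. In simulated counts of this design, 78.0% of 200 genes changed by 2 on the log2 scale were recovered. The simulation gave all batches a shared mean profile and all genes the same spread. It checks the script, and does not tell how many such changes would be found in these data.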

How the data were processed

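Single cells of 5 batches were measured by UMI sequencing. Per the submitters' processing notes, CASAVA 1.8, TopHat2 2.0.12 with mm10 and HTSeq, with no version given, were used. The deposited counts are whole UMIs per gene, without normalization. Columns were matched to samples by the batch number in their names. Of 480 columns, 111 held 0 UMIs. Spike-in rows (95) were dropped. All 5 batches use the same 96 well numbers, and no kept cell was a low-depth repeat of a like-numbered well. No doublet caller was run, since cells were picked by hand.

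Clusters (scanpy 1.11.5, leidenalg 0.10.2, seed 0, 2000 variable genes, 20 components, 15 neighbours, resolution 1) were built without the members, over cells of at least 5000 UMIs other than repeat wells. A name needed 3 markers of a list with a median of at least 20 CPM and a mean at least 2 times that of other cells, and no other list with more genes among the 10 leading genes. Rebuilt names can differ from those of the study.

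Sums of counts were tested with edgeR 4.0.16 (R 4.3.3; filterByExpr, TMM, quasi-likelihood test, Benjamini-Hochberg over all genes, threshold 0.05), with the batch as a block for Pax3. CPM of tested sums use TMM totals. The SE beside an edgeR value is the absolute log2 fold change divided by the square root of the test's F statistic. DESeq2 1.42.0 was an alternative, as were RLE scaling, other cell limits, no filter and left-out batches. Named genes are the members, the 10 largest called changes per direction seen in every batch with a mean count of 10 or more, the genes most like each member, and list genes that were called or most abundant. Members and lists were chosen with earlier results of these data known. Scripts were tested on simulated counts, where the Pax3 comparison recovered 56.5% of 200 genes changed by 2 on the log2 scale. These counts held no differences between batches other than depth, so the share is not the power in these data. Locations are from GENCODE. A few genes that these rules would name are not reported here.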

Additional observations from a re-analysis of the deposited data

How the results depend on the processing

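The call of Met and Tcf15 beside Pax3 held under DESeq2, RLE scaling, no filter on low counts, a limit of 100 CPM, blood-like clusters kept and at least 5000 UMIs. Positive cells defined by 1 UMI after thinning gave 4 calls, at least 5000 UMIs gave 16, and positive cells against all under 50 CPM gave 26. Each of these 3 settings also brought in E10 replicate 2, so the setting and the added batch cannot be told apart. At 5000 UMIs, 20 of the 92 cells of E10 replicate 2 were low-depth repeat wells. They were not removed in that setting, and their part in its calls was not tested. Met was called after thinning, and Tcf15 was not (log2 fold change 2.94, SE 0.48, edgeR adjusted p = 0.165). Each batch gave both sums, which is where the pairing comes from, and with no replicate block 0 genes were called by edgeR, with 365 at an unadjusted p under 0.05. No paired analysis was possible for the stages, because the batch numbers of the labels are not shared between them. Leaving a batch out of the comparison within E10 replicates 1 and 3, or leaving out neural or neural crest-like clusters, left 1 batch and could not be fitted. With 3 batches, leaving 1 out gave 91 to 181 calls, more than the 26 of all 3, so these fits are no stricter check.

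Between stages DESeq2 called 96 genes, and leaving out each batch gave 0 calls by edgeR. The direction of Foxc2 turned to 0.17 without blood-like clusters, and to 5.53 and 0.04 without E9.5 replicate 1 and E10 replicate 3. That of Meox1 turned to 2.25 without E9.5 replicate 1. Over left-out batches the log2 fold change ranged from 3.84 to 6.57 for Pax3, 2.13 to 5.95 for Tcf15, 1.09 to 4.74 for Eya1, 0.21 to 11.81 for Meox2, 0.43 to 9.88 for Pax1, -1.37 to 2.25 for Meox1 and -1.20 to 5.53 for Foxc2. The upper values of Meox2 and Pax1 were set against a lone E9.5 batch at 0 and are no bound. The cause was not tested. The mean share of cells with a UMI of any member was 70.3% in thinned cells and 87.2% without thinning.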
